A study of Homo sapiens with 8 samples.

Results

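The interferon-induced genes of the IFIT family were examined in SKBR3 cells, a human HER2-positive breast cancer line, treated with estradiol, albumin-coupled estradiol or antagonists. All probe sets annotated to IFIT1, IFIT2, IFIT3 or IFIT5 were taken, which gave 7 probe sets for 4 genes, among 54675 probe sets and 19775 genes measured. IFIT1 had 1 probe set and the other members had 2 each, whose mean was used as the gene value. The family was chosen by the differences that IFIT1 had shown on these same arrays with estradiol and with ICI, so every value below is a description and carries no test.

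There were 8 arrays, 1 for each condition. E2-BSA, the hormone coupled to bovine serum albumin, at 1e-06 M, was given with ICI at 1e-05 M, with G15 at 1e-05 M, or alone. The other arrays held cells given estradiol at 1e-06 M, G15 alone at 1e-05 M, the carrier BSA at 1e-06 M, 0.1% ethanol (the vehicle of estradiol), or nothing. All cells had first spent 4 h in medium with 10% charcoal-stripped serum, which is poor in steroids, and all were harvested after 3 h of treatment. G15 is an antagonist of the membrane estrogen receptor GPER, while the labels give no fuller name for ICI. SKBR3 cells are usually classed as negative for nuclear estrogen receptor alpha.

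IFIT proteins are cytoplasmic antiviral effectors built from tetratricopeptide repeats, and their genes are among those most strongly induced by type I interferon. IFIT1 binds RNA whose cap lacks the methylation of host messages and blocks its translation, IFIT2 and IFIT3 form complexes with it, and IFIT5 binds RNA with a free triphosphate end. Transcription of the family is driven through interferon-stimulated response elements, which interferon regulatory factors bind, and IRF3 can also switch these genes on directly during infection.

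The sequences before the start sites are shown because they carry the element through which interferon acts, in members whose values are compared below. RefSeq promoters (GRCh38.p14) were matched for 3 of the 4 members, IFIT1, IFIT3 and IFIT5. Each window covers the 250 bases before the start, on the plus strand, at chr10:89392373-89392622 for IFIT1, chr10:89327747-89327996 for the first start site of IFIT3 and chr10:89414318-89414567 for IFIT5. Capitals mark each match to the response element core GAAANNGAAA, searched on both strands, so that it reads TTTCNNTTTC where it lies on the minus strand.
IFIT1: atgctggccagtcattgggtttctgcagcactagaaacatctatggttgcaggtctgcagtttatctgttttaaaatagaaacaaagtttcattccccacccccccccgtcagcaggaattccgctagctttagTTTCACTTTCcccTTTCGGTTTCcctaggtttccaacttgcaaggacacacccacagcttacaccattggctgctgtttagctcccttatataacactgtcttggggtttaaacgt
IFIT3: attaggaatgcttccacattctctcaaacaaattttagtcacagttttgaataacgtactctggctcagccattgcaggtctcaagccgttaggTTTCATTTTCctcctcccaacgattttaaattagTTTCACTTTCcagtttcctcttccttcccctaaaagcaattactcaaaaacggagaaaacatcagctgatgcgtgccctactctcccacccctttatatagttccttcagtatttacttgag
IFIT5: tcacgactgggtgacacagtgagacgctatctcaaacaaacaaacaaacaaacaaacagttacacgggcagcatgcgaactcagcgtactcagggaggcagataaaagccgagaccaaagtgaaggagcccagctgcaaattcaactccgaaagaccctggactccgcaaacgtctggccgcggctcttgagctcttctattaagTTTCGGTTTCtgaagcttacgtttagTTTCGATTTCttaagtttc

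Each of the 3 windows held 2 matches, all on the minus strand. In IFIT1 they began at -116 and -103 from the start, in IFIT3 at -156 and -122, and in IFIT5, closest to the start, at -45 and -19. The second start site of IFIT3 also had 2 matches, at -94 and -51. Over all promoter windows of the same length, 3.02% of 35116 held at least 1 match and 0.225% held 2 or more. IFIT1B, a family member that lies between IFIT3 and IFIT1 on the chromosome, had 0 matches in its window and was not analysed here on the arrays. Among 31 other interferon-stimulated genes with a window, 22 had a match. A match is a run of letters and does not show that a factor binds there.

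**Figure D1:**
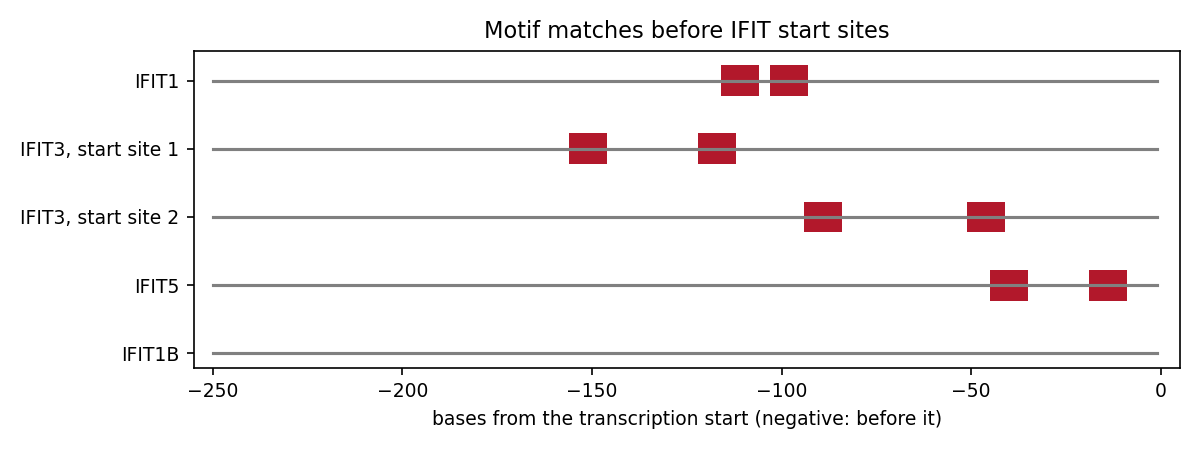
Matches to the response element core in the 250 bases before each start site, with distance from the start in bases on the horizontal axis and 1 line per start site. The red blocks (10 bases each) come in pairs for IFIT1, both start sites of IFIT3 and IFIT5, and IFIT1B has none.

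The deposited values are centred for each probe set, so a value of 0.00 is near the middle of the 8 arrays and the absolute level of a gene is not known. Whether IFIT genes are abundant or barely expressed in SKBR3, and which markers the cells carry, cannot be read from them. They are read as log2 values, so that a difference of 1 is 2-fold. Which log base the authors used is not stated in the labels or the table. Across genes, BSA minus untreated, a pair given neither hormone nor antagonist, had an SD of 0.166, which serves below as the yardstick for small gaps. It is no replicate error, since no condition was repeated. In RNA from whole cultures, a loss of expressing cells and less RNA per cell cannot be told apart.

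IFIT1 had the widest range among the 4 gene means. Its value was -1.56 with E2-BSA plus ICI, -0.57 with E2-BSA plus G15, 0.34 with E2-BSA, -1.25 with estradiol, -0.48 with G15, 0.21 with BSA, 0.15 with ethanol and 0.00 in untreated cells. The order thus runs from E2-BSA plus ICI and estradiol at the bottom, through both arrays with G15, to a group of 4 arrays at the top that holds E2-BSA and the 3 arrays without hormone or antagonist. Gaps of 0.30, 0.68 and 0.48 set apart the lowest array, the next and the pair with G15, while neighbours within that pair (0.097) and within the top group (0.067 to 0.15) differed by less than 0.166. The range of 1.89 ranked 65 among the 19775 genes. IFIT1 rests on the single probe set 203153_at, so no second probe set checks it.

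IFIT3, which stabilises IFIT1 and joins it in an RNA-binding complex, ended up lowest on the same array. Its gene mean was -0.49 with E2-BSA plus ICI, -0.14 with E2-BSA plus G15, 0.43 with E2-BSA, -0.24 with estradiol, -0.07 with G15, 0.01 with BSA, 0.63 with ethanol and 0.18 in untreated cells. Ethanol and E2-BSA were the highest arrays, and the arrays with estradiol, E2-BSA plus G15, G15 and BSA followed each other by gaps of at most 0.098.

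The probe sets of IFIT3 did not run together. On 229450_at the values were -0.75 with E2-BSA plus ICI, -0.45 with E2-BSA plus G15, 0.93 with E2-BSA, -0.27 with estradiol, -0.15 with G15, 0.00 with BSA, 1.52 with ethanol and 0.35 in untreated cells. This is the widest range of any member probe set, 2.27. The other, 204747_at, spanned only 0.43, between -0.27 with ethanol and 0.16 with E2-BSA plus G15. Over the 8 arrays they correlated at r = -0.29. The gene mean weights both alike.

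IFIT2, which in infected cells promotes apoptosis and restricts RNA viruses, had the narrowest range of the gene means, 0.57. Probe set 226757_at stood at -0.34 with E2-BSA plus ICI, -0.52 with E2-BSA plus G15, 0.46 with E2-BSA, -0.55 with estradiol, 0.00 with G15, -0.03 with BSA, 0.997 with ethanol and 0.00 in untreated cells. Probe set 217502_at ran the opposite way, from -0.29 with E2-BSA to 0.33 with BSA, and correlated with the first at r = -0.75 over the 8 arrays. The gene mean, between -0.20 with E2-BSA plus ICI and 0.38 with ethanol, therefore averages signals that oppose each other.

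IFIT5 was the only member with both probe sets in step, at r = 0.83 over the 8 arrays and 0.59 without the ethanol array. Its gene mean was -0.39 with E2-BSA plus ICI, -0.32 with E2-BSA plus G15, 0.17 with E2-BSA, -0.05 with estradiol, -0.19 with G15, 0.00 with BSA, 0.59 with ethanol and 0.01 in untreated cells. The 7 arrays other than ethanol followed each other by gaps of at most 0.166, and ethanol was set apart by 0.42. On 203595_s_at the lowest array was E2-BSA plus ICI at -0.55, and on 203596_s_at it was E2-BSA plus G15 at -0.48.

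**Figure D2:**
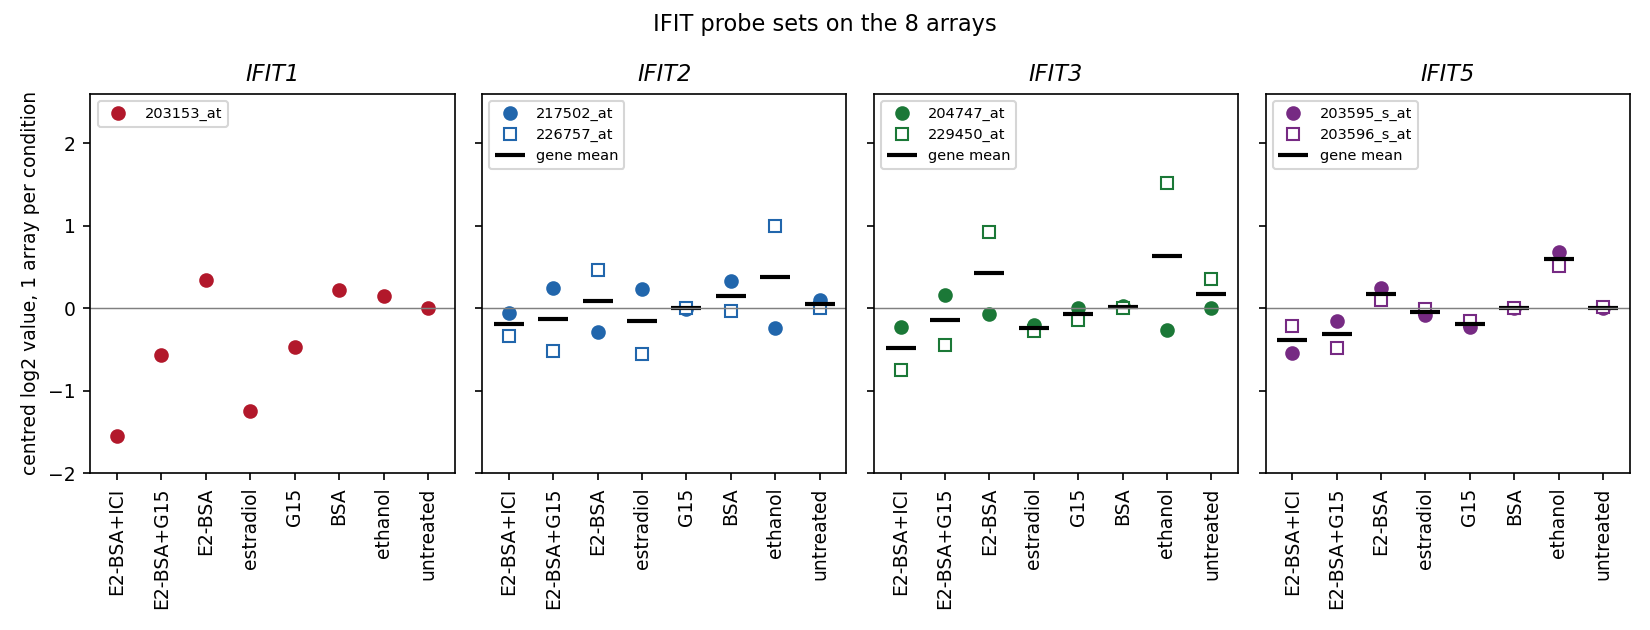
Centred log2 values (vertical axis) of the 7 IFIT probe sets on the 8 arrays (horizontal axis, 1 array per condition), with a bar for the gene mean where a gene has 2 probe sets. IFIT1 stands at -1.56 with E2-BSA plus ICI and -1.25 with estradiol, the 2 probe sets of IFIT2 and of IFIT3 part most on the ethanol array, and those of IFIT5 stay close together.

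Of the 7 probe sets, 203153_at (IFIT1), 226757_at (IFIT2), 229450_at (IFIT3) and the pair of IFIT5 correlated positively with each other. Between 229450_at and the other members' probe sets r was 0.94 for 226757_at, 0.96 for 203595_s_at, 0.87 for 203596_s_at and 0.76 for 203153_at. Without the ethanol array these were 0.86, 0.90, 0.71 and 0.83. The lowest r among the 5 was 0.51, for 203153_at with 203596_s_at, and it was 0.44 without ethanol. Between 226757_at and the IFIT5 probe sets 203595_s_at and 203596_s_at, r was 0.84 and 0.85 over the 8 arrays and 0.61 and 0.63 without ethanol. The points are single arrays that share a centring, and with the level removed it cannot be told which probe set of a gene is bright or dim.

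Free estradiol was first set against untreated cells, both harvested at 3 h. The untreated cells were given no ethanol, the vehicle of estradiol, so these arrays may differ in vehicle as well as in hormone. IFIT1 stood at -1.25 with estradiol, against 0.00 in untreated cells, a difference of -1.25 or 2.38-fold lower. It was 1 of 3 genes at least 2-fold lower, which is 0.0152% of 19775, and these counts include the contrast for which the family was chosen. IFIT3 differed by -0.42, IFIT2 by -0.21 and IFIT5 by -0.05, so the other members stayed far from 2-fold and that of IFIT5 was smaller than 0.166. The median over the 4 genes was -0.31, beside 0.00 over all genes. By probe set, 229450_at of IFIT3 differed by -0.62 and 226757_at of IFIT2 by -0.55, ranks 40 and 95 from the lowest of 54613. Their partners were less low or higher, 204747_at of IFIT3 at -0.21 (rank 4385) and 217502_at of IFIT2 at 0.13 (rank 44486). Only the IFIT1 probe set was 2-fold lower, beside 0.011% of all probe sets.

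Against the other hormone-free arrays the IFIT1 value with estradiol was lower still. It differed by -1.40 from ethanol, where 171 genes (0.865%) were at least 2-fold lower, and by -1.47 from BSA. IFIT3 differed from ethanol by -0.87, IFIT5 by -0.64 and IFIT2 by -0.54, although for these 3 genes ethanol held the highest of all 8 values. At the probe set level 3 of 7 were at least 2-fold lower than on the ethanol array, beside 0.932% of all probe sets. For IFIT5 the estradiol array differed from the BSA array by -0.049 and from the untreated array by -0.054.

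Coupled estradiol was next set against the carrier alone. IFIT1 was at 0.34 with E2-BSA, against 0.21 with BSA, which is a difference of 0.12 and inside the yardstick. IFIT3 differed by 0.41, IFIT5 by 0.17 and IFIT2 by -0.06, and 0 of the 4 genes were 2-fold higher, beside 0.0101% of all genes. On probe set 229450_at of IFIT3 the E2-BSA array stood at 0.93, against 0.00 with BSA, a 1.90-fold difference that ranked 105 from the highest of 54613. For IFIT2, 226757_at gave 0.49 and 217502_at gave -0.62.

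Free and coupled estradiol differ by the attached albumin, and both were given at a stated 1e-06 M for 3 h. Ethanol is labelled as the vehicle of estradiol, and no vehicle is given for either of these arrays, so they may differ in vehicle too. It is not stated whether the molarity of E2-BSA refers to the whole conjugate or to the hormone on it. IFIT1 was at -1.25 with estradiol, against 0.34 with E2-BSA, which is 3.01-fold lower and the second lowest difference of all genes. The other members were lower with free estradiol as well, IFIT3 by a difference of -0.67 (rank 16 of 19775 from the lowest), IFIT2 of -0.25 and IFIT5 of -0.22. At least 2-fold lower were 1 of 4 genes, beside 0.0152% of all genes, and 3 of 7 probe sets, beside 0.0201% of all probe sets. The 3 were those of IFIT1 (-1.59), 229450_at of IFIT3 (-1.20) and 226757_at of IFIT2 (-1.01), while 217502_at of IFIT2 was higher by 0.51 and 204747_at of IFIT3 differed by -0.14. With 1 array of each form, no interval of these differences can be given.

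**Figure D3:**
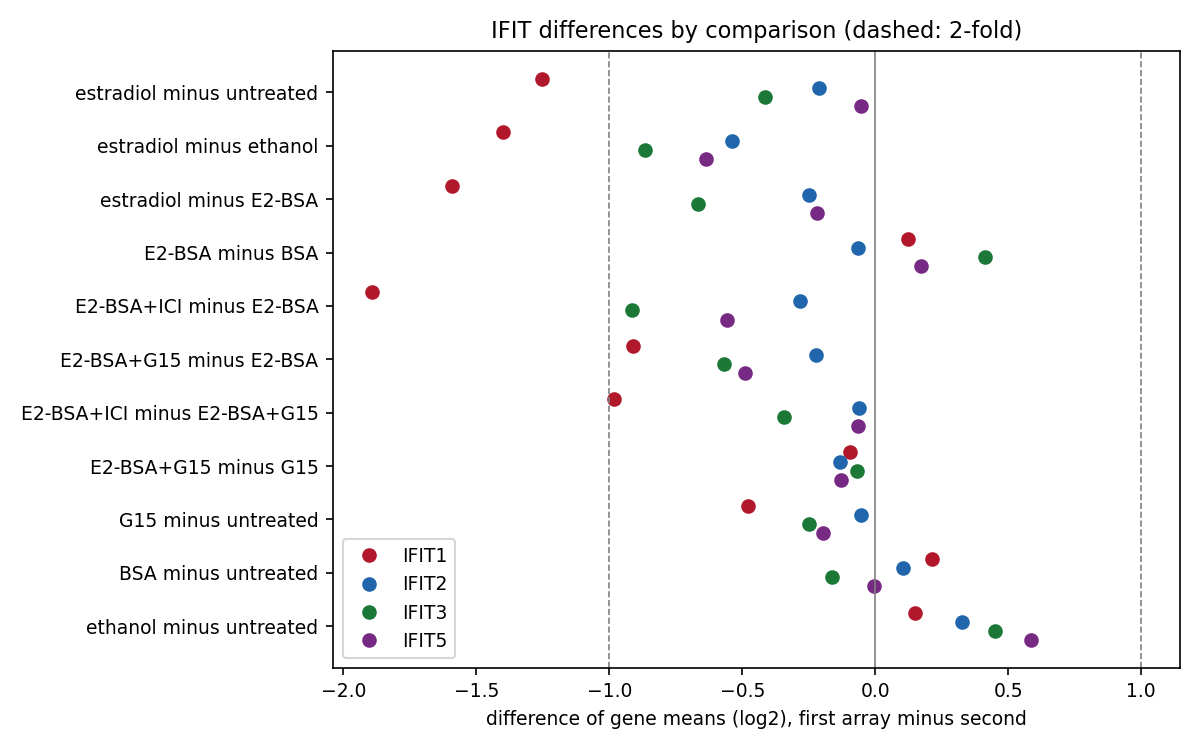
Differences of gene means (log2, horizontal axis) for the 4 IFIT genes in each comparison of 2 arrays (vertical axis), with dashed lines at 2-fold. IFIT1 lies beyond 2-fold against untreated, ethanol and E2-BSA for estradiol and against E2-BSA for E2-BSA plus ICI, and no other gene mean reaches it.

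The array with ICI held the lowest gene mean of every member. For IFIT2 and IFIT5 the next array was higher by only 0.034 and 0.067, within the yardstick. Neither probe set of IFIT2 was lowest there (226757_at was lowest with estradiol, 217502_at with E2-BSA). Nor were 204747_at of IFIT3, lowest with ethanol, and 203596_s_at of IFIT5, lowest with E2-BSA plus G15. IFIT1 was at -1.56 with E2-BSA plus ICI, against 0.34 with E2-BSA, a difference of -1.89 or 3.72-fold lower. IFIT3 differed by -0.91 (1.88-fold lower), IFIT5 by -0.56 and IFIT2 by -0.28. In rank from the lowest of 19775 genes, IFIT1 was 4, IFIT3 was 11 and IFIT5 was 130. At 2-fold lower there were 8 genes (0.0405%), of which IFIT1 was 1, and the median over the family was -0.74, beside 0.01 over all genes. Of the 7 probe sets 2 reached 2-fold, beside 0.119% of all probe sets, 203153_at and the IFIT3 probe set 229450_at at -1.67, and the other probe sets of IFIT3 and IFIT2 differed by -0.16 (204747_at) and 0.23 (217502_at).

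E2-BSA was the highest of the 8 arrays for IFIT1, so other comparators are given beside it. Set against BSA, E2-BSA plus ICI differed by -1.77 for IFIT1, -0.50 for IFIT3, -0.39 for IFIT5 and -0.35 for IFIT2. Against untreated cells the differences were -1.56, -0.66, -0.39 and -0.24 for the same genes. ICI was not seen here without E2-BSA, so its own contribution is not known from these values.

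With G15 added to E2-BSA all 4 gene means were lower than with E2-BSA alone, by less than with ICI. For IFIT2 and IFIT5 that order did not hold on every probe set. Against E2-BSA, 226757_at of IFIT2 differed by -0.98 with G15 and by -0.80 with ICI. Likewise, 203596_s_at of IFIT5 differed by -0.58 with G15 and by -0.32 with ICI. All other member probe sets were lower with ICI than with G15. IFIT1 was at -0.57 with E2-BSA plus G15, against 0.34 with E2-BSA, a difference of -0.91 or 1.88-fold lower. The differences were -0.57 for IFIT3, -0.49 for IFIT5 and -0.22 for IFIT2. None of the 4 gene means reached 2-fold lower, beside 0.0303% of all genes. Of the probe sets, 229450_at of IFIT3 did, at -1.37, beside 0.0513% of all probe sets, and 226757_at of IFIT2 came close at -0.98. The other probe sets of these genes differed the opposite way, 217502_at of IFIT2 by 0.53 and 204747_at of IFIT3 by 0.23.

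G15 given without hormone is set beside this. IFIT1 was at -0.48 with G15, against 0.00 in untreated cells, and it differed by -0.69 from BSA. IFIT3 differed from untreated cells by -0.25, IFIT5 by -0.20 and IFIT2 by -0.05, and 0 of the 4 were 2-fold lower, as were 0% of all genes. The G15 difference for IFIT1 was thus -0.91 with E2-BSA and -0.48 without it, which leaves -0.44 between them when untreated cells are the base of the second and -0.22 when BSA is. E2-BSA plus G15 differed from G15 alone by -0.10 for IFIT1, -0.07 for IFIT3, -0.13 for IFIT5 and -0.13 for IFIT2, all within the yardstick. These means hold probe sets that oppose each other: 226757_at and 217502_at of IFIT2 differed by -0.52 and 0.25, 229450_at and 204747_at of IFIT3 by -0.30 and 0.16, and 203596_s_at and 203595_s_at of IFIT5 by -0.33 and 0.07. In that comparison 0.0101% of all genes were 2-fold lower and none of the family.

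Between the antagonists, both given at 1e-05 M with E2-BSA, IFIT1 differed most. It was at -1.56 with ICI, against -0.57 with G15, a difference of -0.98 or 1.98-fold and the second lowest of all genes. IFIT3 differed by -0.34 (rank 459 from the lowest), more than the yardstick, IFIT5 by -0.07 and IFIT2 by -0.06. The small means of IFIT5 and IFIT2 hold probe sets that oppose each other, each beyond the yardstick. For IFIT5, 203595_s_at differed by -0.39 and 203596_s_at by 0.26. For IFIT2, 217502_at differed by -0.30 and 226757_at by 0.18. At 2-fold lower there were 0 of the 4 genes, beside 0.00506% of all genes.

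The carrier and vehicle arrays give the background without hormone or antagonist. BSA minus untreated was 0.21 for IFIT1, 0.10 for IFIT2, -0.16 for IFIT3 and -0.01 for IFIT5, with 0 of 4 genes 2-fold higher, beside 0.0303% of all genes. Ethanol minus untreated was 0.15 for IFIT1, 0.33 for IFIT2, 0.45 for IFIT3 and 0.58 for IFIT5. Here too 0 of 4 genes were 2-fold higher, beside 0.87% of all genes. Of the 7 probe sets only 229450_at of IFIT3 was at least 2-fold higher with ethanol, at 1.17, beside 1.08% of all probe sets, and 226757_at of IFIT2 followed at 0.997, just short of 2-fold.

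The ethanol array had the widest spread of values of any array. A 2-fold higher value than in untreated cells was found for 172 genes (0.87%), and for 8 of 10 NF-kB target genes of inflammation, whose median difference was 4.81. There the interferon-inducible chemokine CXCL10 was higher than in untreated cells by 2.86, CXCL11 by 1.82, CCL5 by 1.29 and CXCL9 by only 0.10, the transcription factor IRF1 by 3.69 and the RNA sensor IFIH1 by 1.21. Their part in the ethanol values of IFIT2, IFIT3 and IFIT5 was not tested. With estradiol CXCL10, CXCL11, CCL5, IRF1 and IFIH1 differed from untreated cells by -0.10, 0.10, 0.07, 0.01 and 0.04, each within the yardstick.

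Other interferon-stimulated effectors were followed in a list of 37 measured genes. With estradiol 0 were 2-fold lower than in untreated cells, beside 0.0152% of all genes. Below 0 lay 19 of the 37, near the share of 49.4% over all genes, with a median of -0.01, beside 0.00. The lowest was CMPK2, a nucleotide kinase gene, at -0.51. With E2-BSA plus ICI against E2-BSA 1 was 2-fold lower, beside 0.0405% of all genes, and 7 were 1.5-fold lower, beside 0.566%. In the other direction 1 was 1.5-fold higher, beside 1.03%, and the median was -0.10, beside 0.01. The 2-fold gene was SAMD9, an antiviral factor that restricts poxviruses, at -1.02. Below 2-fold, and named after their values were seen, were OAS1 at -0.88, IFI44L at -0.77 and MX1 at -0.61, while ISG15, the ubiquitin-like modifier, differed by -0.10, RSAD2 by -0.14 and HERC5 by 0.70. IFIT1 was lower than every one of the 37 genes in both comparisons. The family was chosen by the IFIT1 differences with estradiol and with ICI, so this place is partly set by the choice.

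With E2-BSA plus G15 against E2-BSA, 0 of the 37 were 2-fold lower, beside 0.0303% of all genes. The median was -0.07, beside -0.01 over all genes. SAMD9 was again the lowest at -0.67, and IFI27 the highest at 0.71. IFI27 did not follow the family: it was at -0.40 with E2-BSA, against 0.88 with BSA, which is a difference of -1.28. Its value in untreated cells was -0.37, close to that with E2-BSA, and BSA differed from untreated cells by 1.25. On ethanol minus untreated 27 of the 37 lay above 0, beside 42.1% of all genes, with a median of 0.15, beside -0.03. The carrier gave much the same: on BSA minus untreated 28 of the 37 lay above 0, beside 48.1%, with a median of 0.12, beside 0.00.

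**Figure D4:**
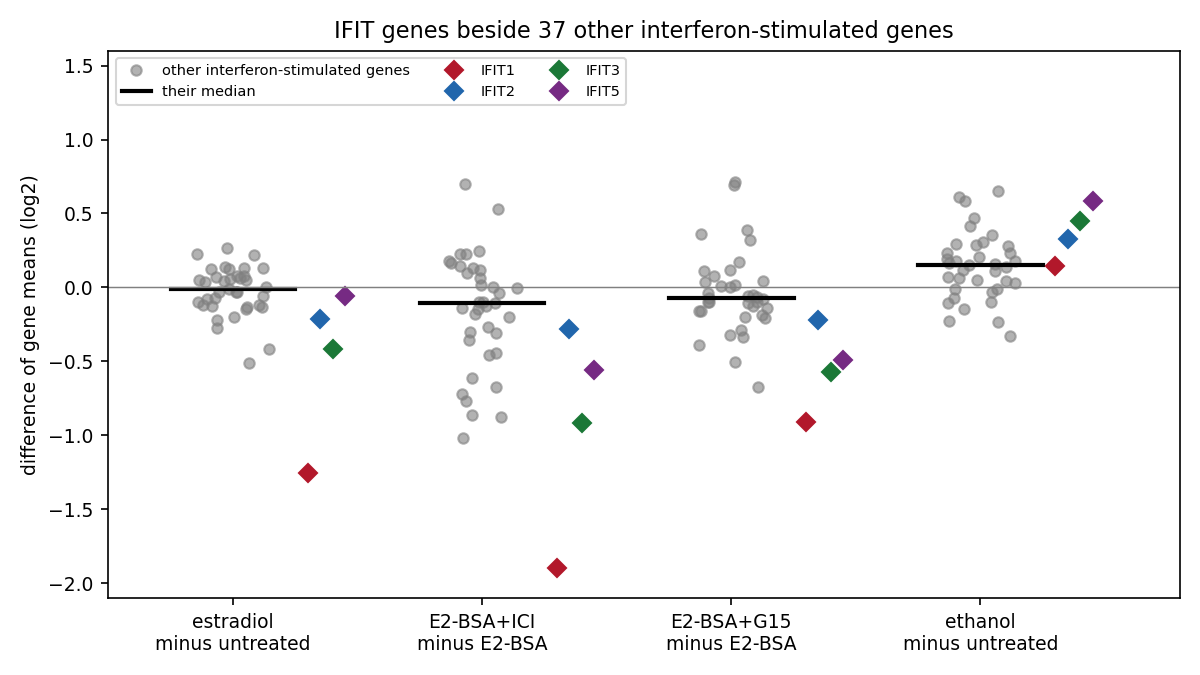
Differences of gene means (log2, vertical axis) in 4 comparisons (horizontal axis) for 37 other interferon-stimulated genes (grey points, jittered sideways, with their median as a bar) and the 4 IFIT genes (diamonds). IFIT1 lies below all grey points with estradiol and with ICI or G15 added to E2-BSA, and among them with ethanol. The family was chosen by the IFIT1 differences with estradiol and with ICI.

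Upstream of the family lie the interferons, their receptors and the factors that carry the signal to the promoters. Of 9 interferon genes measured, 0 were 2-fold higher or lower in any of the 11 comparisons, and IFNB1 was listed at 0.00 on 6 arrays. Of 12 measured receptors and signal transducers 0 reached 2-fold. Among all genes no more than 0.87% did so in any comparison and direction, so these counts say little about either set. IRF9, an interferon regulatory factor that acts at these elements, was at -0.48 with E2-BSA plus ICI, -0.28 with E2-BSA plus G15, 0.15 with E2-BSA, -0.26 with estradiol, 0.00 with G15, 0.16 with BSA, 0.39 with ethanol and -0.07 in untreated cells. Its 3 lowest arrays were also the 3 lowest of IFIT1, over a smaller range. It differed by -0.63 between E2-BSA plus ICI and E2-BSA and by -0.19 between estradiol and untreated cells.

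Among 14 nucleic acid sensors and interferon regulatory factors, IRF1 and IFIH1 were 2-fold higher with ethanol than in untreated cells, beside 0.87% of all genes, and none reached 2-fold in a comparison without that array. IRF7, itself interferon-inducible, differed by 0.04 between E2-BSA plus ICI and E2-BSA and by -0.01 between estradiol and untreated cells. IRF2 differed by 0.16 and 0.08, IRF3 by 0.13 and 0.08 (and by 0.70 between G15 and untreated cells), and IRF5 by 0.30 and -0.08 in those comparisons. RIGI, the sensor of triphosphate RNA and named after its values were seen, was at -0.25 with E2-BSA plus ICI, against 0.37 with E2-BSA, and differed by -0.18 with estradiol.

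The patterns most like that of IFIT1 were found by Pearson correlation over the 8 arrays among 366 genes with a range of at least 1. The 10 nearest genes were SMAD7 (r = 0.92), ID2 (0.92), CMPK2 (0.90), ID1 (0.88), ID4 (0.86), SAMD9 (0.84), HOXC13 (0.81), DLX2 (0.78), DDIT4 (0.72) and PLEKHG1 (0.70). ID1, ID2 and ID4 are dominant inhibitors of helix-loop-helix factors, SMAD7 is a feedback inhibitor of TGF-beta family signalling, and HOXC13 and DLX2 are homeobox genes. CMPK2 and SAMD9 belong to the interferon-stimulated list. The range filter kept out other genes of that list with a like correlation to IFIT1, such as OAS1 (0.95), TRIM22 (0.91), DDX60 (0.91), OAS2 (0.85) and MX1 (0.83), which are named after their values were seen. Others of the list ran the opposite way, such as MX2 (-0.76), HERC5 (-0.75) and IFITM2 (-0.61), or were near 0, such as OASL (0.01). These too are named after their values were seen, and the list as a whole did not follow IFIT1. With the ethanol array left out of both the correlation and the range, an alternative chosen after seeing the data, 46 genes had a range of at least 1, and 5 of the 10 (ID1, ID2, ID4, SAMD9 and HOXC13) were among the nearest 10.

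ID1 differed from IFIT1 in where the arrays with G15 lay. ID1 was at -1.93 with E2-BSA plus ICI, -1.70 with E2-BSA plus G15, 0.04 with E2-BSA, -2.02 with estradiol and 0.00 with G15, so that E2-BSA plus G15 was among its low arrays and G15 alone was not. ID2 was at -1.22, -0.58, 0.00, -1.24 and 0.05 on the same arrays, so that its value with E2-BSA plus G15 was close to that of IFIT1 and its value with G15 alone was not. For IFIT1 the arrays with G15 lay next to each other, at -0.57 with and -0.48 without E2-BSA. None of the 6 genes of the ID and SMAD list had a response element match in its promoter window. Of all genes with a window only 3.71% had one, so the absence does not set these 6 apart.

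**Figure D5:**
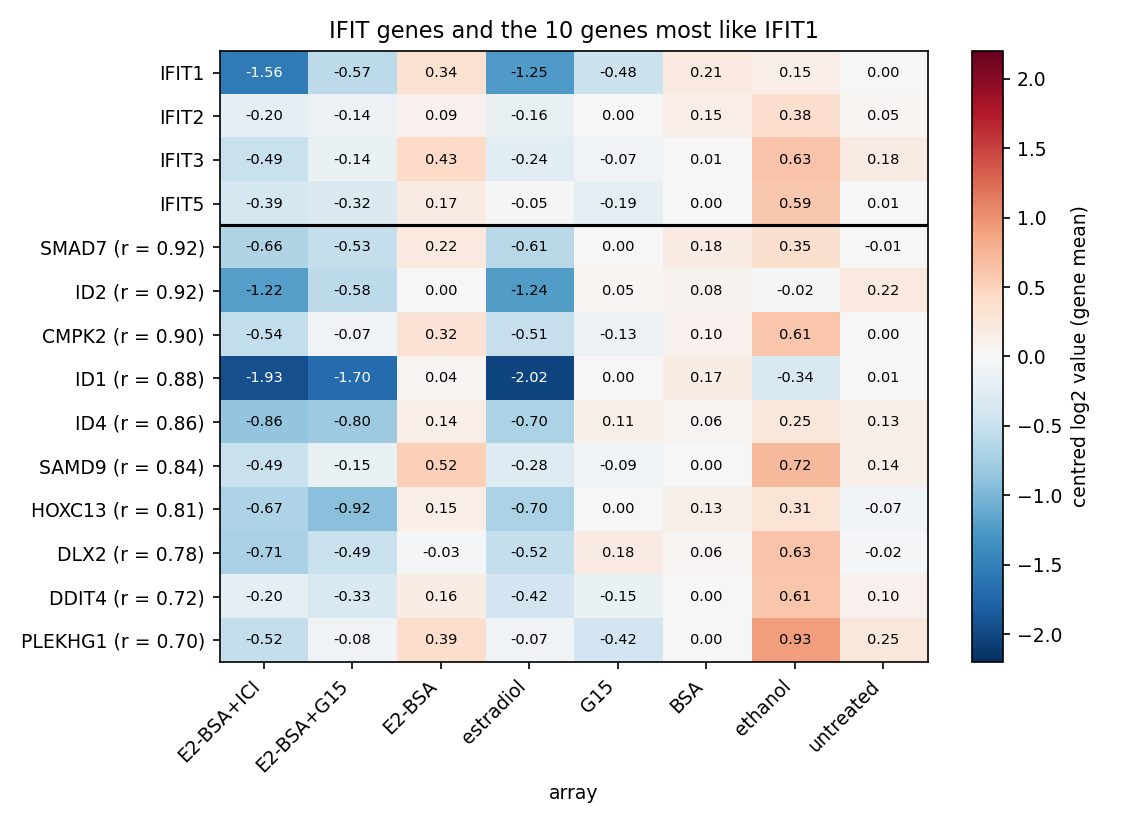
Centred log2 gene values (colour and number in each cell) of the 4 IFIT genes, above the line, and of the 10 genes most like IFIT1, below it, on the 8 arrays (columns), with r over the 8 arrays in parentheses. IFIT1, ID1 and ID2 are low with E2-BSA plus ICI and with estradiol, and with G15 alone IFIT1 is at -0.48 while ID1 and ID2 are near 0.

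For IFIT3 the nearest genes were SAMD9 (r = 0.996), CMPK2 (0.95), PLEKHG1 (0.93), CLK1 (0.91) and RIT1 (0.90). Of these 5, SAMD9 alone was among the nearest 5 with ethanol left out of the correlation and the range. The nearest to IFIT5 were the antisense transcripts ST7-AS1 (0.98) and GOLGA4-AS1 (0.97), SEPTIN7-DT (0.96), ZNF26 (0.96) and RNA45SN5 (0.96). With ethanol left out of both the correlation and the range, 0 of these were among the nearest 5. For IFIT2 they were OVOL1 (0.96), DLX2 (0.94), CDKN1A (0.94), PFKFB3 (0.94) and RIT1 (0.94), of which 0 were among the nearest 5 when ethanol was left out in that way.

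Genes around the family on chromosome 10 give the local background. On one side lie LIPA, CH25H and FAS, and on the other PANK1, KIF20B and HTR7, as the nearest 3 measured protein-coding genes each. Between estradiol and untreated cells they differed by between -0.12 (KIF20B) and 0.13 (HTR7), and between E2-BSA plus ICI and E2-BSA by between -0.17 (CH25H) and 0.08 (HTR7). With ethanol, PANK1 differed from untreated cells by -0.47 and KIF20B by -0.31. None of these 6 genes had a response element match in its window, beside 3.71% of all genes with a window.

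Of the luminal epithelial and immune cell markers, 8 and 7 genes, 0 reached 2-fold in any of the 11 comparisons. Among all genes no more than 0.87% did so in any comparison and direction. The largest difference of a marker was 0.58 for CD3E between E2-BSA plus ICI and E2-BSA.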

How the data were processed

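Transcripts were measured in SKBR3 cells on 8 Affymetrix arrays, 1 per condition, grouped by their titles. The deposited values, read as log2, were centred per probe set by the authors, as the values themselves show: no probe set has more than 4 arrays on either side of 0. Probe summarization, normalization, log base and software are not stated in those sources. Values ran from -2.27 to 7.85 with a median of 0.00 on every array, and were used as deposited. The 62 control probe sets were left out. Of the others, 41091 carried 1 gene in the platform annotation, 1801 several and 11721 none, and names were updated through the gene identifier for 41037. A gene is the mean of its probe sets. With 1 array per condition there is no test and no p-value, no batch can be examined, and precision is limited by the number of arrays. Differences are between single arrays, counted at a size of 1. Low values could not be filtered. Named genes were the members, the 10 genes most like IFIT1 and 5 for each other member, list members at 2-fold, IRF genes, the 3 nearest measured genes on each side, and ID1 and ID2. Other names were picked after their values were seen, as marked. Members, lists (10) and comparisons (11) were chosen with earlier results of these data known. The steps were tested on simulated data. Python 3.11.15 and pandas 2.3.3 were used. Alternatives were array centring, other probe set summaries, probe set types, log base and comparators.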

Additional observations from a re-analysis of the deposited data

How the results depend on the processing

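No IFIT gene difference at 2-fold changed sign, but few alternatives could have changed one. Only IFIT1 reached 2-fold, it has 1 probe set, and another log base keeps the sign. Only other comparators could have turned it. None was run for estradiol minus E2-BSA or E2-BSA plus ICI minus E2-BSA, so no change was possible there. Read as natural logs, the values gave IFIT1 differences of -1.81 for estradiol minus untreated, -2.30 for estradiol minus E2-BSA, -2.73 for E2-BSA plus ICI minus E2-BSA and -1.32 for E2-BSA plus G15 minus E2-BSA, and counts of IFIT genes at least 2-fold lower of 2 against ethanol and 2 for ICI, beside 1 each, and of 1 for G15 added to E2-BSA and 1 for ICI against G15, beside 0 each, by the rescaling itself. With the probe set of largest SD for each gene, which drops 217502_at of IFIT2 and 204747_at of IFIT3, the counts were 3 for estradiol minus ethanol, 3 for estradiol minus E2-BSA and 2 for E2-BSA plus ICI minus E2-BSA, beside 1 each, and 1 for E2-BSA plus G15 minus E2-BSA, beside 0. With BSA as comparator IFIT1 with estradiol differed by -1.47. Centring each array, medians of probe sets and leaving out probe sets ending in _s_at or _x_at left the IFIT counts at 2-fold as they were by construction, since array medians were already 0.00, the median of 2 probe sets is their mean and only IFIT5, which then has no value, has such probe sets. Differences moved by over 0.166 in 11 of 71 values recomputed for IFIT1, 17 of 71 for IFIT2, 26 of 71 for IFIT3 and 18 of 60 for IFIT5. These tallies do not rank the members by stability. With 1 probe set, IFIT1 could be moved only by the log base and the comparators. The choice of probe set could also move the others. Of the 10 genes most like IFIT1, 6 were shared by Spearman's rho, 7 with ethanol left out of the correlation and 5 with it left out of the range too. A range filter of 0.5 changed no count over all genes, by construction. No paired analysis was possible because each condition has 1 array. Values carry no signal over background, so dim probe sets cannot be told from bright ones.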

Other observations

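Of the proteins that IFIT family members are known to bind, 5 genes were measured. Their median difference was -0.28 for E2-BSA plus ICI minus E2-BSA, with all 5 below 0 and none at 2-fold, beside a median of 0.01 over all genes, of which 46.8% lay below 0. One of the 5, MAVS, was only just below 0. EIF3E, a subunit of the translation initiation factor to which IFIT1 binds, was at -0.16 with E2-BSA plus ICI, against 0.12 with E2-BSA. STING1, an adaptor of DNA sensing, was at -0.12 and 0.16 on these arrays. With estradiol, EIF3E differed from untreated cells by 0.09 and STING1 by -0.20. EIF3C was higher with ethanol than in untreated cells, by 1.04, and was the only one of the 5 at 2-fold there, beside 0.87% of all genes.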
